A study of Mus musculus with 24 samples.

Results

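RNA was compared between lymph node B cells that had lost both PU.1 and SpiB (PU.1 SpiB DKO, shortened to DKO) and control B cells after a 48 h culture in which CD40L was given at 50 ng/ml and IL-4 at 10 ng/ml. Levels are read counts scaled to the library total (CPM). A gene entered the comparison when 2 or more of the 8 libraries of this culture held 0.5 CPM or more, which kept 12721 of the 27179 genes counted. The study describes the mice as kept on a C57BL/6 background and 6 to 20 weeks old. Control mice were Cd23T/+, meaning that they carried Cd23-Cre, a BAC transgene in which the regulatory sequences of Cd23 (Fcer2a) drive Cre from the transitional B cell stage on, and their label lists neither a floxed Spi1 nor a null Spib allele. DKO mice were Spi1fl/fl Cd23T/+ Spib-/-, so they shared the transgene with the controls, carried a Spi1 whose floxed exon 5 Cre can delete in B cells and lacked Spib throughout the body. The most closely related genotypes, PU.1 cKO (Spi1fl/fl Cd23T/+) and SpiB KO (Spi1fl/fl Cd23+/+ Spib-/-, without Cre), were cultured in the same way. Each genotype had 2 libraries, described by the study as biological replicates, and p-values measure only the spread between them. Cells were sorted as CD3- B220+ CD138- before RNA extraction, a gate that removes cells carrying syndecan-1 (CD138) on their surface.

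PU.1 (encoded by Spi1) and SpiB are closely related ETS factors that bind the DNA core GGAA, alone or together with IRF4 or IRF8. CD40L and IL-4 stand in for the help that T cells give to B cells, and drive cell division, switching of the heavy chain to IgG1 and IgE, and the maturation of some cells toward plasmablasts. Pax5, Bach2 and Bcl6 are known for holding cells in the B cell state, whereas Irf4, Prdm1 (Blimp1) and Xbp1 are known for driving plasma cell differentiation and secretion.

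The 4 libraries compared held 9598674 to 11334956 counts on genes. Rn45s, the ribosomal RNA precursor, held 6.64% of counts in DKO replicate 1 and 0.416% to 1.86% in the other libraries of the culture, and its part in the results was tested only by leaving the gene out, which gave 2337 calls in place of 2331. All 8 B cell markers examined were present in every library, with summed levels of 20120 and 26420 CPM in control and 13850 and 12050 CPM in DKO, and 4 of them fell. Plasma cell markers summed to 1626 and 1962 CPM in control and to 3777 and 4018 CPM in DKO, and 7 of the 8 rose in these CD138- sorted cells. T cell markers summed to 58.0 and 53.5 CPM in control and to 151 and 123 CPM in DKO. The defining T cell genes were close to 0, with at most 7 reads of Cd3d, Cd3e or Cd3g in any of the 4 libraries, and the rise lay in Zap70 and Lck, signaling kinases that B cells can also express, while Cd5 fell. NK cell markers summed to 7.72 and 9.32 CPM in control and to 30.6 and 27.4 CPM in DKO, with 0 reads of Ncr1. Calls were made for Prf1 and Eomes (higher) and for Nkg7 (lower, 12 and 5 reads in control and 0 and 2 in DKO). Nkg7 lies 1087.7 kb from Spib and averaged 0.0985 CPM in SpiB KO, against 0.788 CPM in control. Macrophage markers summed to 44.4 and 59.6 CPM in control and to 11.9 and 8.86 CPM in DKO, with 0 reads of Csf1r and Cd14 and calls for Emr1 and Cd68 (lower). The pDC markers summed to 354 and 317 CPM in control and to 208 and 199 CPM in DKO, with at most 1 read of Siglech and calls for Tcf4 and Pacsin1 (lower). The part of other cells in the results was not tested. The summed level of marginal zone B cell markers overlapped between the groups, at 296 and 398 CPM in control and 469 and 318 CPM in DKO, while S1pr3 was called lower (-1.15) and Myof higher (1.07, a call lost without DKO replicate 1, at 0.73, or either control, at 1.22 and 0.94). In bulk RNA, fewer cells of a type and less RNA per cell cannot be told apart.

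A gene was called when edgeR's quasi-likelihood test gave a Benjamini-Hochberg adjusted p under 0.15 over all 12721 genes and the fold change exceeded 1.5. Between DKO and control, 2331 genes (18.3%) were called, 1161 of them higher in DKO (9.13%) and 1170 lower (9.2%). The median size of their log2 fold change was 1.03, with quartiles of 0.753 and 1.7, and 277 genes rose and 181 fell by more than 4-fold. Both DKO libraries lay on the same side of both controls for 2322 of the called genes, and this was so for 56.4% of all genes tested. The median log2 fold change over all genes tested was 0.00155. Without control replicate 1 the calls numbered 1508, and without DKO replicate 2 they numbered 1630.

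Spi1 and Spib were examined first. Spi1 (Entrez ID 20375, chromosome 2 from 91082374 to 91115759, GRCm38) stood at 84.8 and 108 CPM in control and at 32.5 and 25.6 CPM in DKO, a log2 fold change of -1.73 (SE 0.21, adjusted p = 0.000368). Spib (Entrez ID 272382, chromosome 7 from 44525995 to 44532087) stood at 398 and 525 CPM in control and at 11.3 and 9.05 CPM in DKO, a log2 fold change of -5.50 (SE 0.26, adjusted p = 7.85e-07). Both genes separated the groups in the direction of the genotype labels. The counts cover all exons of a gene, so reads over the deleted exons were not isolated.

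Genes beside the altered alleles moved as well. Mybpc3, a sarcomere gene that lies 2.4 kb from Spi1 (chromosome 2 from 91118114 to 91136516), had 3 and 0 reads in control and 2786 and 2533 reads in DKO, a ratio of 1880 (95% counting interval 643 to 9120). It was also high in PU.1 cKO, at a mean of 318 CPM, and stood at 0.364 CPM in SpiB KO. Within 5 Mb of Spib, 34 of 112 genes tested were called (30.4%), against 5 of 42 (11.9%) within 5 Mb of Spi1 and 18.3% of all genes. Of those 34 genes, 7 were called in the same direction in SpiB KO, which had 17 calls among all 12721 genes. Absence of a call there does not show that a gene stayed unchanged. Ftl1, the ferritin light chain gene, was among the lower genes of this interval, at a mean of 339 CPM in control, 26.5 CPM in DKO and 10.2 CPM in SpiB KO, and Pold1, the catalytic subunit of DNA polymerase delta, which lies 0.7 kb from Spib, fell by 1.20 on the log2 scale. For genes of this interval that moved in SpiB KO as well, loss of SpiB and a carried-over stretch of chromosome around the targeted allele cannot be told apart.

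Several regulators of the B cell state fell, and most of those of plasma cells rose. Of 17 factors known for B cell identity, 7 fell (41.2% against 9.2% of all genes) and 2 rose (11.8% against 9.13%). Their median log2 fold change was -0.522. Of 8 plasma cell factors, 7 rose (87.5% against 9.13%) and 0 fell (median 1.171). Pax5 stood at 214 and 225 CPM in control and at 132 and 97.6 CPM in DKO, a log2 fold change of -0.94 (SE 0.19, adjusted p = 0.00785). Bach2, a repressor of Prdm1, stood at 159 and 118 CPM in control and at 78.4 and 64.6 CPM in DKO, a log2 fold change of -0.96 (SE 0.20, adjusted p = 0.00908). The DKO libraries were below both controls for either gene, as they were for Tcf4 (E2-2), which fell by 0.70, and for Pou2f2 (Oct2), which fell by 1.74. Bcl6, the germinal center repressor, was read at 31.0 and 15.4 CPM in control and at 12.2 and 7.81 CPM in DKO, and its log2 fold change of -1.22 (adjusted p = 0.0838) lost its call without control replicate 1 (-0.63) or DKO replicate 2 (-0.92). Without control replicate 1, the lower members of the whole list of 25 regulators numbered 4 in place of 7. Irf8 stood at 665 and 668 CPM in control and at 711 and 725 CPM in DKO and was not called (0.11, adjusted p = 0.675), and Tcf3 (E2A, 0.41) and Pou2af1 (Obf1, 0.53) stayed under the fold threshold.

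Prdm1 showed the opposite pattern (chromosome 10 from 44437174 to 44528558), at 8.33 and 9.12 CPM in control and 45.4 and 50.6 CPM in DKO, a log2 fold change of 2.46 (SE 0.18, adjusted p = 1.38e-05). Bhlha15 (Mist1), a factor of secretory cells, rose from 5.44 and 3.56 CPM to 48.1 and 49.9 CPM (log2 fold change 3.43, SE 0.38, adjusted p = 0.000202). Ell2, an elongation factor known for the switch to secreted immunoglobulin mRNA, rose from 114 and 83.2 CPM to 480 and 385 CPM (2.14, SE 0.20, adjusted p = 6.51e-05). In each of these genes the lowest DKO library exceeded the highest control library several-fold. Xbp1, the transcription factor of the unfolded protein response, stood at 807 and 955 CPM in control and 1643 and 1796 CPM in DKO, a log2 fold change of 0.96 (SE 0.19, adjusted p = 0.00646). Cebpb rose by 1.38 and Id2, an inhibitor of E proteins, by 1.25. Irf4 stood at 399 and 446 CPM in control and 618 and 700 CPM in DKO (0.64, adjusted p = 0.0885), and its call was lost without control replicate 1 or DKO replicate 2 (0.56 in either case). Among the 14 other ETS factors tested, Erg had 0 reads in both controls. Its level in DKO was 24.7-fold that of 3 counts over the control group. For the ratio to the control reads themselves, the lower 95% counting limit was 19.6-fold. Ets2 rose by 0.78, Elf4 fell by 0.77 and Etv5 fell by 1.06. Without control replicate 1, 0 of these factors were called lower (Elf4 at -0.58, Etv5 at -0.59), and Etv5 also lost its call without either DKO replicate (-0.91 and -1.22).

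**Figure D1:**
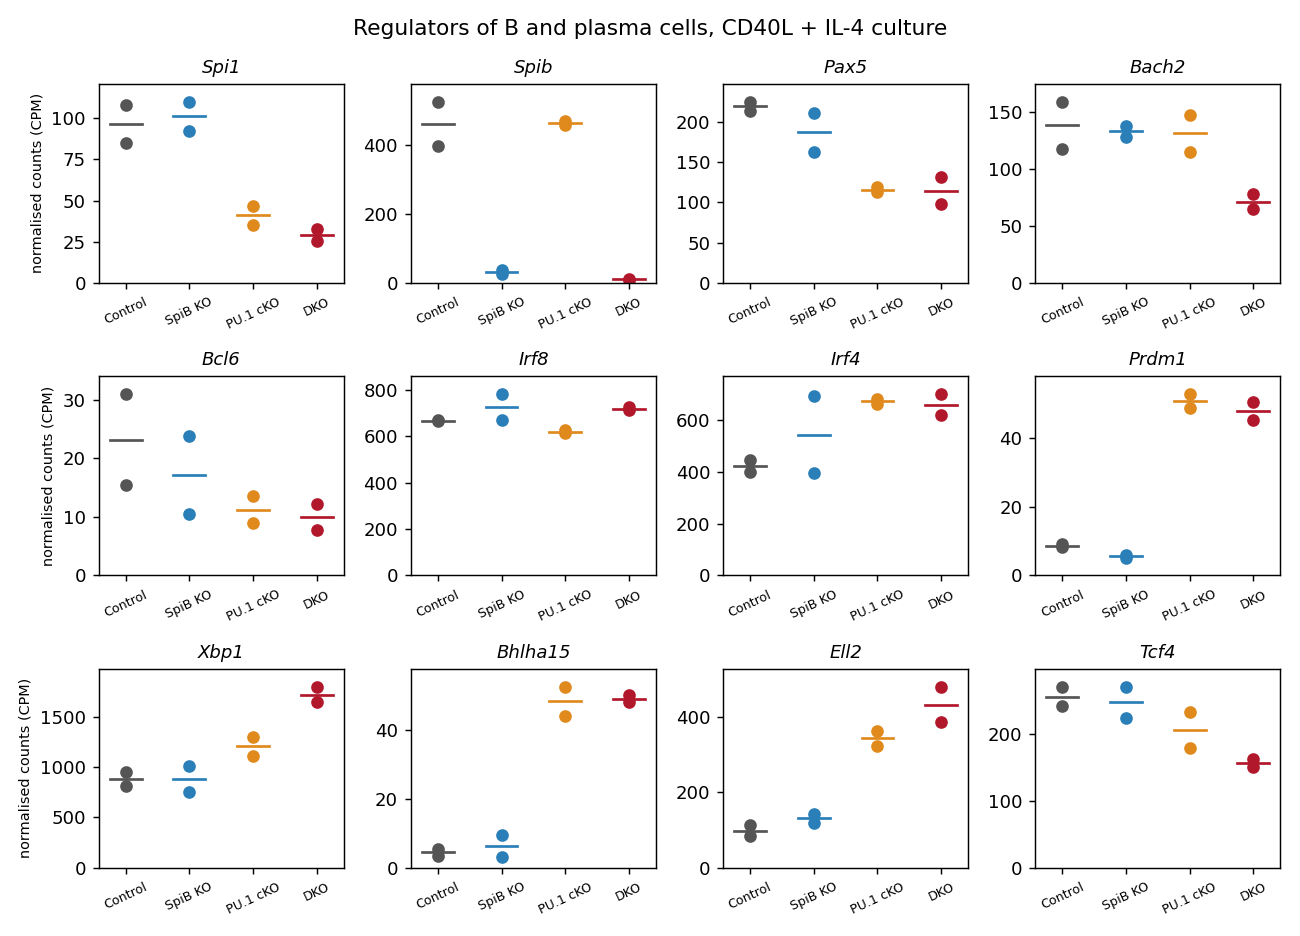
Normalised counts (CPM, linear axes from 0) of 12 regulators in the 8 libraries of the culture. Each point is a library and each bar the mean of 2. Prdm1, Bhlha15 and Ell2 stand at 45.4 CPM or more in every DKO library, above both controls, while Irf8 differs little between the genotypes.

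Many genes of the secretory pathway rose. Of 82 tested genes that fold, modify and export proteins in the endoplasmic reticulum (ER) or act in the unfolded protein response, 40 rose and 0 fell, or 48.8% against 9.13% of all genes, and the median log2 fold change was 0.579. The count ran from 34 to 44 under the alternative settings. By role, 11 of 13 chaperones rose (median 1.015), 13 of 24 translocation and glycosylation genes (0.637), 6 of 14 transport genes (0.537), 4 of 9 disulphide genes (0.58) and 4 of 12 genes of ER-associated degradation (0.419). Only 2 of the 10 stress sensors and factors, Xbp1 and Ern1, were called (median 0.156). The plasma cell markers moved in the same direction, with 7 of 8 higher, and the part of plasmablasts in these counts was not tested.

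Mzb1, an ER co-chaperone for immunoglobulin, stood at 399 and 539 CPM in control and at 1425 and 1420 CPM in DKO (log2 fold change 1.60, SE 0.18, adjusted p = 0.000239). Derl3, which exports misfolded proteins from the ER, rose from 7.54 and 6.71 CPM to 47.1 and 32.9 CPM (2.48, SE 0.25, adjusted p = 0.000121), and Sec24d, a cargo adaptor of COPII vesicles, from 18.1 and 15.1 CPM to 65.8 and 58.7 CPM (1.91, SE 0.29, adjusted p = 0.00172). The groups did not overlap in any of the 3. The general chaperones Hspa5 (BiP, 1.04), Hyou1 (1.08), Manf (1.12) and Creld2 (1.37) rose, and Sec61b (0.72) and Sec61g (1.36), subunits of the translocation channel, rose too. Of 18 tested genes known from plasma cells, 9 rose, a larger share than the 9.13% of all genes, and 0 fell (median 0.693). Fewer rose without DKO replicate 2. Sdc1, which encodes CD138, stood at 4.30 and 4.19 CPM in control and at 19.5 and 17.4 CPM in DKO (2.12, SE 0.25, adjusted p = 0.000364) in these CD138- sorted cells. Cd28, a survival receptor of plasma cells, rose by 3.31 and Fkbp11, an ER prolyl isomerase, by 1.84, whereas Tnfrsf17 (BCMA) had at most 1 read in any of the 4 libraries.

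**Figure D2:**
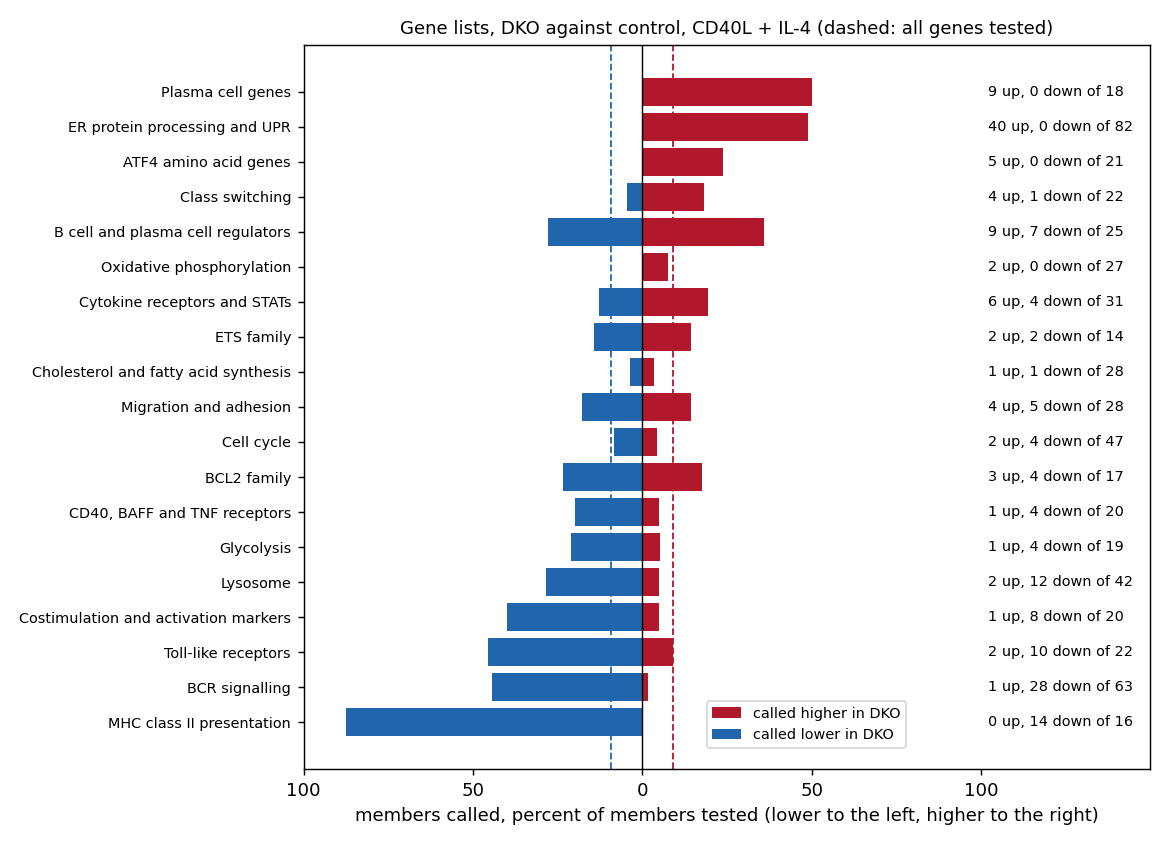
Share of the tested members of 19 gene lists called lower (to the left) and higher (to the right) in DKO, in percent, with the shares over all genes tested as dashed lines. MHC class II presentation, BCR signaling and Toll-like receptor genes extend furthest to the left, and plasma cell and ER genes furthest to the right.

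Many components of B cell receptor (BCR) signaling were reduced. The BCR consists of immunoglobulin and the Cd79a and Cd79b chains, passes its signal through the kinases Lyn, Syk and Btk and the adaptor Blnk, and reaches NF-kB through Prkcb and Malt1. Of 63 genes in this list, 28 fell and 1 rose (44.4% lower against 9.2% of all genes), with a median log2 fold change of -0.578, and the count of lower genes ran from 22 to 32 under the alternative settings. The signaling chains themselves were not called. Cd79a stood at 1002 and 1248 CPM in control and 1285 and 1093 CPM in DKO (0.08, adjusted p = 0.827), and Cd79b at 1328 and 1831 CPM against 1291 and 1008 CPM (-0.46, adjusted p = 0.204). Of the 5 kinases 4 fell (median -1.075), and of the 8 PKC and NF-kB genes 5 fell (median -0.926), whereas 3 of 12 calcium and NFAT genes fell (median -0.409).

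Btk (chromosome X from 134542334 to 134583628), the kinase mutated in X-linked agammaglobulinemia, stood at 172 and 168 CPM in control and at 72.9 and 65.3 CPM in DKO, a log2 fold change of -1.30 (SE 0.17, adjusted p = 0.000547). Blnk fell from 322 and 328 CPM to 201 and 203 CPM (-0.69, SE 0.14, adjusted p = 0.00979). Rasgrp3, an exchange factor that activates Ras, fell from 286 and 221 CPM to 69.1 and 90.5 CPM (-1.67, SE 0.18, adjusted p = 0.000203). Replicates of a group lay close together for Btk and Blnk, and for all 3 genes both DKO libraries were below both controls. Syk fell by 1.08, Lyn by 1.29, Prkcb by 1.36 and Malt1 by 1.38, and the adaptor Pik3ap1 (BCAP) by 1.91.

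Inhibitors of the receptor were among the lower genes. Siglecg, an inhibitory lectin of B cells, stood at 129 and 154 CPM in control and at 15.4 and 19.1 CPM in DKO (-3.03, SE 0.23, adjusted p = 1.69e-05). It lies 1107.6 kb from Spib and stood at a mean of 140 CPM in SpiB KO. Fcgr2b, the inhibitory Fc receptor, fell by 1.64 and Ptpn6 (SHP-1), the phosphatase that such receptors recruit, by 1.19. The member that rose was Rasgrp2 (128 and 144 CPM to 248 and 191 CPM, 0.69), whose call was lost without DKO replicate 1 (0.49), whereas its relative Rasgrp1 fell by 1.61.

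**Figure D3:**
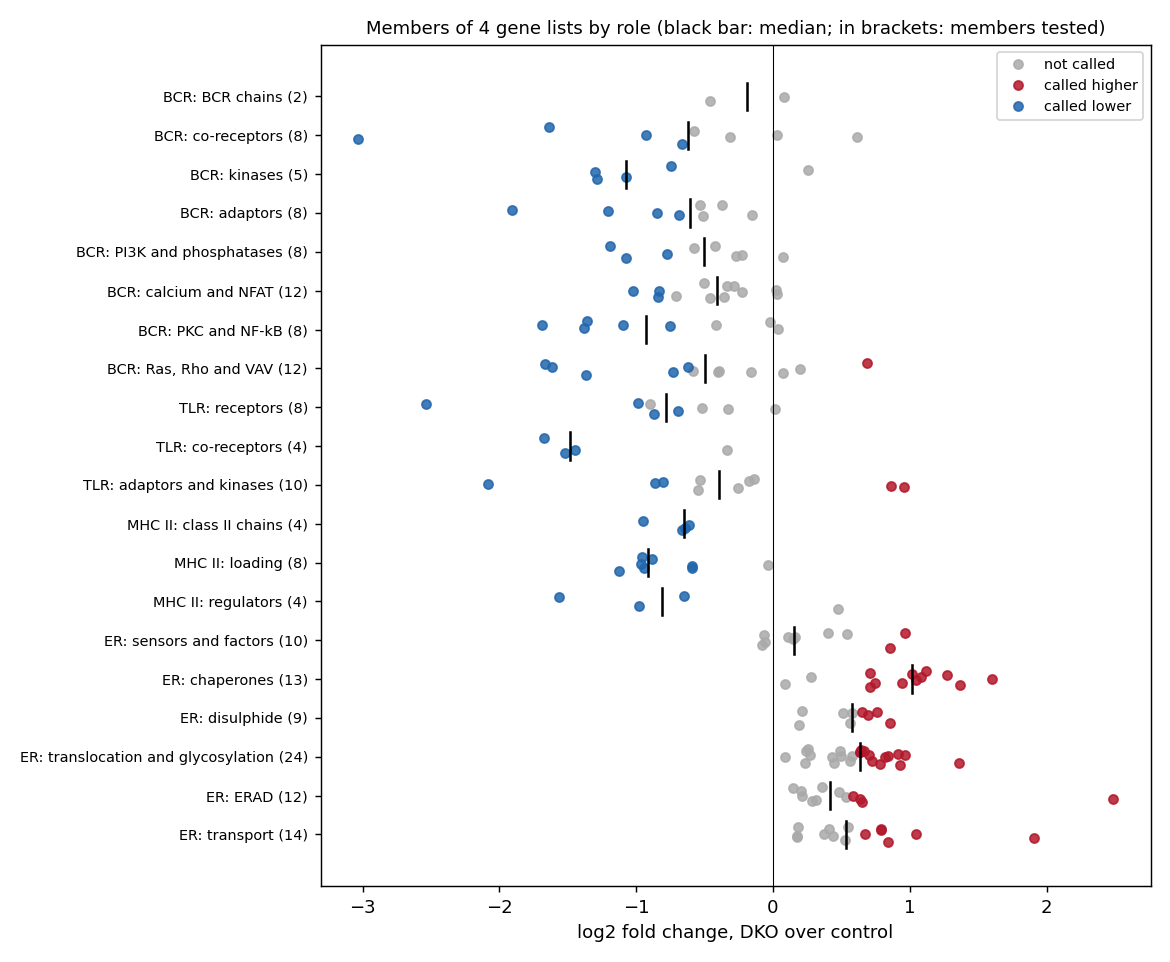
Log2 fold change (DKO over control) of the tested members of the BCR, Toll-like receptor (TLR), MHC class II and ER lists, by role, with black bars at the medians and colours for genes called. The 13 ER chaperones centre on 1.015 and the 5 BCR kinases on -1.075.

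Promoters of receptor and signaling genes that fell are shown because PU.1 and SpiB share the GGAA core. They are the 250 bases before a RefSeq start (GRCm38.p6), written 5′ to 3′ on the strand of the gene. Capitals mark GGAA or its complement TTCC. Rasgrp3 has separate entries for a pair of starts. A start need not be the outer end of the gene. The Btk window lies inside the bounds of its gene, which end at 134583628. So does the second Rasgrp3 window, and the first overlaps the start of its gene at 75435870.
Btk promoter, chrX:134583141-134583390, minus strand: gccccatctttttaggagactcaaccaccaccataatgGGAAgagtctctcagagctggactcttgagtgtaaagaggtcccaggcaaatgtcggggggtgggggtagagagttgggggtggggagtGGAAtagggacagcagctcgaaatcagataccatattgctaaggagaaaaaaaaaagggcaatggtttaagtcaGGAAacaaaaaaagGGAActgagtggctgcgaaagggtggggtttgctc
Blnk promoter, chr19:40994222-40994471, minus strand: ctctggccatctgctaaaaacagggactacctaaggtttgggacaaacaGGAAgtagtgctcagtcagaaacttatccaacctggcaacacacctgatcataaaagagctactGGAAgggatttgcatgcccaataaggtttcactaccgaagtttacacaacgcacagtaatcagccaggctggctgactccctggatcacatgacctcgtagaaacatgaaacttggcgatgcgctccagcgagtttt
Rasgrp3 promoter, chr17:75435655-75435904, plus strand: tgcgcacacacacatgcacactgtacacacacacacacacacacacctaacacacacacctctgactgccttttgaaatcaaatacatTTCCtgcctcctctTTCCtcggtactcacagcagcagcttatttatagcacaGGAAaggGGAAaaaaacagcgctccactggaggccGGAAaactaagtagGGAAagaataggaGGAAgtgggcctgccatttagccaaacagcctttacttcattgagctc
Rasgrp3 promoter, chr17:75465288-75465537, plus strand: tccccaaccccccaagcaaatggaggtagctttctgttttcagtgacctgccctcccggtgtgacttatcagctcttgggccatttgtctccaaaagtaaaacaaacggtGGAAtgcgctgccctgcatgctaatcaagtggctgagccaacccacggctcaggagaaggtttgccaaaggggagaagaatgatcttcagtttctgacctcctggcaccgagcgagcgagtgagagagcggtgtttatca
Tnfrsf13c promoter, chr15:82224381-82224630, minus strand: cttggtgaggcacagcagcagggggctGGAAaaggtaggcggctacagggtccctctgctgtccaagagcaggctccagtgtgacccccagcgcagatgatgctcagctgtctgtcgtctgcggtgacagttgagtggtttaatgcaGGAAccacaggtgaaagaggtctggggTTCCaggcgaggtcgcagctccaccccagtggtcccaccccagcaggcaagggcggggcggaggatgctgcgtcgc
Tlr9 promoter, chr9:106222348-106222597, plus strand: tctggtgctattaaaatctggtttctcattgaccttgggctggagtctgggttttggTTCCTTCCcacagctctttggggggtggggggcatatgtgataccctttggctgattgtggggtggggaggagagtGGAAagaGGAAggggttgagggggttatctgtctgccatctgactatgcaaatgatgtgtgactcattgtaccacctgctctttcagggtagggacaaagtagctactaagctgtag
The windows of Btk and Tlr9 held 4 cores each, that of Blnk 2, that of Tnfrsf13c 3 and those of Rasgrp3 7 and 1. The longer PU.1 type motif GAGGAAGT stood at -50 from the first Rasgrp3 start, and on the reverse strand at 10 bases after the Tlr9 start, outside the bases printed.

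Promoters of 300 bases (50 of them after the start) were searched on both strands for 8984 of the genes tested. GGAA was found in 95.3% of the promoters of lower genes, 94.4% of those of higher genes and 95.6% of all. GAGGAAGT was found in 5.56%, 2.08% and 3.31%, and the ETS-IRF composite GGAANNGAAA in 3.86%, 2.18% and 2.37%, respectively. Both longer motifs contain the core, and no test was made of these shares.

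Some receptors for activating signals were reduced, including that for the stimulus in the culture. Cd40 (chromosome 2 from 165055614 to 165071654), the receptor for CD40L, stood at 114 and 162 CPM in control and at 31.4 and 39.1 CPM in DKO, a log2 fold change of -1.96 (SE 0.20, adjusted p = 0.000107). Tnfrsf13c, which encodes the BAFF receptor, stood at 286 and 351 CPM in control and at 158 and 118 CPM in DKO (-1.21, SE 0.19, adjusted p = 0.00224). The DKO libraries were the lower ones in both genes. Of 20 tested genes of CD40, BAFF and TNF receptor signaling, 4 fell (20% against 9.2% of all genes). A single gene, Tnfrsf1b (TNF receptor 2, 1.04), rose (5% against 9.13%). The other lower members were Rel (c-Rel), which fell by 1.82, and the adaptor Traf3, which fell by 0.73, so that 15 of the 20 were not called.

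Of 22 tested TLR genes, 10 fell (45.5% against 9.2% of all genes) and 2 rose (median -0.619), and 6 fell without DKO replicate 2. Tlr9 (chromosome 9 from 106222598 to 106226876), the endosomal receptor for CpG DNA, stood at 126 and 143 CPM in control and at 24.7 and 21.6 CPM in DKO, a log2 fold change of -2.54 (SE 0.20, adjusted p = 2.39e-05). Proteins that TLRs need also fell. Unc93b1, which carries TLRs to endosomes, fell from 574 and 648 CPM to 242 and 206 CPM (-1.45, SE 0.18, adjusted p = 0.000455), Cnpy3, a folding factor for TLRs, fell by 1.52, and Ly86 (MD-1), the partner of CD180, by 1.68. Irf5, a transcription factor activated by TLRs, fell by 2.08. Tlr4, the receptor for LPS, was read at 15.3 and 19.0 CPM in control and at 10.8 and 8.0 CPM in DKO (-0.87, adjusted p = 0.0245), and lost its call without DKO replicate 2 (-0.65). Tlr7 was not called (0.02), and the shared adaptor Myd88 was higher in DKO, at 169 and 202 CPM against 94.6 and 96.0 CPM (0.96, SE 0.16, adjusted p = 0.00336).

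Genes of MHC class II presentation, by which B cells show peptides to helper T cells, were lower. Of 16 such genes, 14 fell and 0 rose (87.5% against 9.2% of all genes, median log2 fold change -0.771), but the changes were small and 6 fell without DKO replicate 2 or without control replicate 2. Ciita, the transactivator of the whole group, stood at 701 and 483 CPM in control and at 204 and 197 CPM in DKO (-1.56, SE 0.25, adjusted p = 0.00205). Cd74, the invariant chain, stood at 14447 and 19186 CPM in control and at 9051 and 8292 CPM in DKO (-0.96, SE 0.19, adjusted p = 0.00844). H2-Aa was read at 4312 and 5877 CPM in control and at 3527 and 2987 CPM in DKO (-0.65, adjusted p = 0.0592), and it lost its call without control replicate 2 (-0.40) or DKO replicate 2 (-0.52). The thiol reductase Ifi30 (GILT) fell by 1.12 and cathepsin S (Ctss), which trims the invariant chain, by 0.97.

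Lysosomal genes followed in part, with 12 of 42 lower (28.6% against 9.2% of all genes) and 2 higher (median -0.25), and 4 higher without control replicate 2. Lgmn, an endopeptidase that starts antigen processing, fell from 229 and 266 CPM to 35.3 and 32.4 CPM (-2.87, SE 0.20, adjusted p = 1.06e-05), and Grn (progranulin) from 286 and 326 CPM to 75.4 and 79.0 CPM (-1.99, SE 0.15, adjusted p = 1.85e-05). Neither gene showed overlap between the groups. Psap (prosaposin) fell by 1.14, while Neu1, a sialidase, rose by 1.19 and 28 of the 42 genes were not called. Cd68 and Emr1 (F4/80), which also belong to the macrophage markers, fell by 1.80 and 2.95, and the defining macrophage genes Csf1r and Cd14 had 0 reads in these libraries.

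Receptors for cytokines moved in both directions. The list held 31 genes of cytokine receptors, JAK and STAT factors and SOCS inhibitors (median -0.2). Of these, 6 rose (19.4% against 9.13% of all genes) and 4 fell (12.9% against 9.2%). The IL-2 receptor chains rose, Il2ra (CD25) from 9.30 and 11.4 CPM to 41.3 and 42.9 CPM (2.03, SE 0.20, adjusted p = 9.3e-05) and Il2rb from 4.30 and 2.10 CPM to 44.7 and 42.4 CPM (3.74, SE 0.39, adjusted p = 0.00015). Il4ra, a chain of the receptor for the cytokine in the culture, stood at 1612 and 1867 CPM in control and at 3091 and 2621 CPM in DKO (0.72, adjusted p = 0.0169), and it was not called with limma voom. Il5ra (41.6 and 44.8 CPM in control, 54.2 and 81.7 CPM in DKO, 0.65, adjusted p = 0.0816) lost its call without DKO replicate 2 (0.33), control replicate 1 (0.60) or control replicate 2 (0.71). Jak2 fell from 177 and 179 CPM to 73.6 and 59.6 CPM (-1.42, SE 0.23, adjusted p = 0.00217), and without DKO replicate 2 the lower genes of the list numbered 2.

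Genes of migration and adhesion moved in both directions. Ccr6, a chemokine receptor of mature B cells, fell from 122 and 111 CPM to 12.6 and 14.1 CPM (-3.12, SE 0.22, adjusted p = 1.35e-05). Across the 28 tested genes of the list 5 fell (17.9% against 9.2% of all genes) and 4 rose (14.3% against 9.13%), Itgb1 (integrin beta 1, 1.07) among the latter, and without DKO replicate 1 the counts were 9 and 1. Without control replicate 1 a single gene rose. Of 20 costimulatory ligands and activation markers, 8 fell (40.0% against 9.2% of all genes) and 1 rose. Fcer2a (CD23) fell from 1022 and 1065 CPM to 258 and 350 CPM (-1.78, SE 0.17, adjusted p = 9.3e-05), with the Cd23-Cre transgene present in both groups. Slamf1 fell by 2.24, Cd86, a ligand for CD28 on T cells, by 1.26, and the tetraspanins Cd53 and Cd37 by 1.52 and 1.27. Cd37 lies 701.5 kb from Spib and averaged 684 CPM in SpiB KO, against 867 CPM in control. Cd24a rose from 123 and 135 CPM to 527 and 673 CPM (2.22, SE 0.25, adjusted p = 0.000218).

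Transcripts of heavy chain constant genes were examined because IL-4 directs switching. Transcripts of Ighg1 (IgG1) rose from 270 and 174 CPM to 703 and 650 CPM (1.60, SE 0.24, adjusted p = 0.00148) and those of Ighm (IgM) from 7914 and 9130 CPM to 16255 and 14314 CPM (0.84, SE 0.17, adjusted p = 0.00869), the latter without a call under limma voom. Ighe, the other isotype that IL-4 induces, was not called (0.29). The gene counts did not separate germline from switched transcripts.

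Few genes of proliferation were called. Of 47 cell cycle genes, 2 rose (4.26% against 9.13% of all genes) and 4 fell (8.51% against 9.2%). Fewer fell without control replicate 1, and fewer rose without DKO replicate 2 or control replicate 2. Calls were made for 0 of 15 replication genes (median -0.189) and 0 of 16 mitosis genes (median 0.015). The exceptions were regulators of G1. Ccnd2 (cyclin D2), a target of BCR signaling, fell from 310 and 274 CPM to 138 and 153 CPM (-1.01, SE 0.20, adjusted p = 0.00798), E2f1 fell by 0.72 and the CDK inhibitor Cdkn1a (p21) rose by 1.09. Of 17 tested BCL2 family genes, 4 fell (23.5% against 9.2% of all genes) and 3 rose (17.6% against 9.13%). Fewer rose without DKO replicate 2 or control replicate 1. Bcl2 fell from 73.5 and 62.9 CPM to 31.3 and 26.1 CPM (-1.25, SE 0.19, adjusted p = 0.00177), and Bcl2a1b and Bcl2a1d, near-identical copies that can share reads, fell by 2.28 and 2.97, whereas Bcl2l1 (Bcl-xL) was at 53.2 and 73.6 CPM in DKO against 33.5 and 41.5 CPM (0.76) and lost its call without control replicate 1 (0.61) or DKO replicate 2 (0.51).

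Metabolic lists differed, and their counts moved with single libraries. Sterol, fatty acid and oxidative phosphorylation genes were called less often than all genes. Glycolysis genes fell and ATF4 targets rose more often than all genes. Of 28 sterol and fatty acid synthesis genes 1 rose (3.57% against 9.13% of all genes) and 1 fell (3.57% against 9.2%). More of them fell when control replicate 2 was left out. Of 27 oxidative phosphorylation genes 2 rose (7.41% against 9.13%) and 0 fell. Fewer rose when control replicate 1 was left out, and more when control replicate 2 was. Of 19 glycolysis genes 4 fell (21.1% against 9.2% of all genes) and 1 rose (5.26% against 9.13%). Leaving out control replicate 1 lowered the number that fell. Of 21 ATF4 targets of amino acid supply 5 rose (23.8% against 9.13% of all genes), but only 1 without control replicate 2 and 2 without DKO replicate 2. Within glycolysis, Aldoc fell from 25.1 and 19.8 CPM to 6.47 and 3.33 CPM (-2.21, SE 0.46, adjusted p = 0.00984), and Slc16a3, a lactate exporter, was read at 24.7 and 18.9 CPM in control and at 2.27 and 1.14 CPM in DKO (-3.70, adjusted p = 0.0538), a call lost without DKO replicate 2 (-3.26) or control replicate 1 (-3.48).

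Among called genes whose groups did not overlap and whose higher group averaged at least 5 CPM, the 10 largest rises were led by Mybpc3 and by Csrp3, a muscle LIM protein gene, from 1.23 and 1.15 CPM to 273 and 330 CPM (7.97, SE 0.36, adjusted p = 7.03e-07). Csrp3 lies 4298.3 kb from Spib and stood at 94.3 CPM in SpiB KO. Rgs16, a brake on G protein signaling, rose from 0.526 and 0.314 CPM to 32.7 and 23.5 CPM (6.01, SE 0.34), and Atp1b1, a subunit of the sodium pump, from 5.00 and 8.07 CPM to 432 and 235 CPM (5.69, SE 0.34). Ccr10, the chemokine receptor of mucosal plasma cells, went from 3 reads in both controls together to 182 in DKO, a ratio of 64.3 (95% counting interval 21.7 to 315). Hid1 (5.57), Gm20746 (5.82), Gcsam (5.09), Cpeb3 (3 to 97 reads, a ratio of 34.3, interval 11.4 to 169) and Clic5 (4.69) completed the list.

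The 10 largest falls by the same rule included Spib itself. Htatip2 stood at 28.5 and 29.7 CPM in control and at 0.108 and 0.286 CPM in DKO (-7.12, SE 0.37, adjusted p = 3.04e-06), and at 0 in both SpiB KO libraries. Xkrx fell from 57.7 and 74.0 CPM to 0.755 and 0.762 CPM (-6.42, SE 0.32), and Havcr1 (TIM-1), a surface protein known from regulatory B cells, from 35.2 and 34.1 CPM to 0.755 and 0.762 CPM (-5.50, SE 0.33). Cfp (properdin), an activator of complement, fell from 79.8 and 91.7 CPM to 3.56 and 3.43 CPM (-4.61, SE 0.21), and Lifr, the receptor for leukemia inhibitory factor, from 49.5 and 57.4 CPM to 1.94 and 0.953 CPM (-5.22, SE 0.43). Nxpe2 (-6.34), Btnl1 (-5.48), Tnni2 (-4.81) and Grm6 (-4.50) were the others. In all of them both control libraries lay above both DKO libraries.

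PU.1 cKO and SpiB KO cells were compared with the same control libraries, so their values are set beside those of DKO and the likeness between columns is not a result. Against control, PU.1 cKO had 1714 genes called and SpiB KO had 17. The median log2 fold change of the ER list was 0.579 in DKO, 0.407 with PU.1 loss and 0.002 with SpiB loss alone, and that of MHC class II genes -0.771, -0.662 and -0.017. Some other genes of the MHC region were high in PU.1 cKO alone, as given for the direct contrast. In the class II median of PU.1 cKO, PU.1 loss and another difference of those mice therefore cannot be told apart. For TLR genes it was -0.619 in DKO, -0.169 with PU.1 loss and -0.045 with SpiB loss alone. In SpiB KO, Prdm1 averaged 5.55 CPM, against 50.9 CPM in PU.1 cKO.

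**Figure D4:**
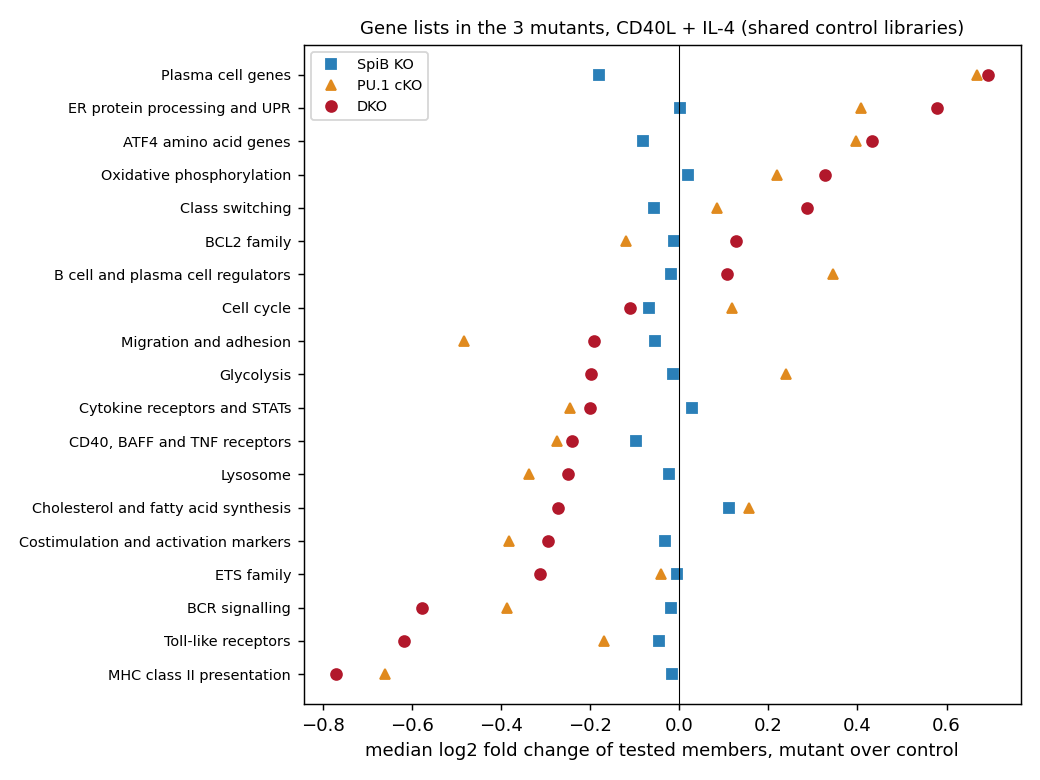
Median log2 fold change of the tested members of 19 gene lists in SpiB KO, PU.1 cKO and DKO, each against the same 2 control libraries. The SpiB KO medians lie near 0, and the TLR list has medians of -0.169 in PU.1 cKO and -0.619 in DKO.

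DKO and PU.1 cKO, which differ by label in Spib, were compared directly. Values of the control libraries did not enter the contrast, but all 8 libraries of the culture shared its filter, scaling and estimate of spread. This contrast called 517 genes (4.06%), 284 higher and 233 lower in DKO, against 650 with only the 4 libraries compared in the fit. The contrast included PU.1 cKO replicate 2, the deepest library at 61640683 counts. Of the lists, 6 of 22 TLR genes and 9 of 63 BCR genes were called, against 0 of 82 ER genes and 0 of 8 plasma cell factors. Tlr9 averaged 72.5 CPM in PU.1 cKO, and its log2 fold change in DKO against PU.1 cKO was -1.64, while Tlr4 (-0.97), Unc93b1 (-0.69), Cnpy3 (-0.93), Ly86 (-0.74) and Irf5 (-0.60) were lower too. Bach2 averaged 132 CPM in the PU.1 cKO libraries and 133 CPM in those of SpiB KO, close to control, and was lower in DKO than in PU.1 cKO by a log2 fold change of -0.88. Siglecg (-2.45), Syk (-1.0), Btk (-0.63), Rasgrp1 (-1.42) and Tnfrsf13c (-0.80) were lower in DKO, and Il2ra (1.39), Il2rb (1.62) and Il5ra (0.88) were higher.

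Several leading genes of this contrast were high in the PU.1 cKO libraries and low in both other groups. H2-Ea-ps, of the MHC region on chromosome 17, stood at 1664 and 2764 CPM in PU.1 cKO, at 0.539 and 3.33 CPM in DKO and at 0.175 and 0 CPM in control. H2-Q10 and Gm11127, of the same region, stood in PU.1 cKO at 79.5 and 182 CPM and at 23.0 and 44.6 CPM, and in DKO at 1.29 CPM or less. For genes of this region, the labelled genotype and another difference of the PU.1 cKO mice cannot be told apart, and the cause was not tested. Gdpd3 was at 30.5 CPM in both PU.1 cKO libraries and at 0 in both DKO libraries, and was read at 0.175 and 0.419 CPM in control. Htatip2, low in DKO and SpiB KO, had a log2 fold change of -6.87, and like Csrp3 it lies on chromosome 7, where the Spib allele and the loss of SpiB cannot be told apart. In the other direction, Csrp3 was higher by 8.79 on the log2 scale, Gm20746 by 4.74, Ighg3 by 4.72 (10.1 and 7.34 CPM in DKO, 4.30 and 4.82 CPM in control but 0.301 and 0.329 CPM in PU.1 cKO), Cx3cl1 by 4.06 and Lilrb4 by 4.05. The count of 517 rested on single libraries, at 198 without PU.1 cKO replicate 2, 251 without PU.1 cKO replicate 1 and 230 without DKO replicate 2.

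The effect of the DKO genotype was compared with that in cells cultured with LPS (20 µg/ml) and IL-4 and in naive cells, which have control libraries of their own, by a term for genotype by stage fitted over 24 libraries. The effect differed from that in LPS + IL-4 for 3080 of 13684 genes (22.5%) and from that in naive cells for 1969 (14.4%). Counts of the CD40L + IL-4 libraries were deposited as a set apart from those of the other stages. In these differences, stage and deposited set cannot be told apart. The median log2 fold change of the BCR list was -0.578 after CD40L + IL-4, 0.017 after LPS + IL-4 and -0.419 in naive cells, that of MHC class II genes -0.771, -0.142 and -0.466, and that of ER genes 0.579, 0.24 and 0.179. The rise of Prdm1 was larger after CD40L + IL-4 than after LPS + IL-4 (by 0.96, adjusted p = 0.0148) and than in naive cells (by 1.5, adjusted p = 0.00836). Tlr9 fell more than in LPS + IL-4 (difference -1.07, adjusted p = 0.00887) and than in naive cells (-2.09, adjusted p = 1.57e-05). The difference from LPS + IL-4 was -1.54 for Spi1 itself (adjusted p = 0.000325), whose log2 fold change was -0.18 there and -0.63 in naive cells. The share of cells that had deleted Spi1 at each stage was not measured here. From read coverage, the study describes the floxed exon of Spi1 as fully removed in DKO cells after CD40L + IL-4. It reports a similarly high deletion after LPS + IL-4, but marked retention of the exon in naive DKO cells. The values of naive DKO cells are therefore those of a partial deletion. Its part in the differences from naive cells was not tested. Without control LPS + IL-4 replicate 2 the differences from that culture numbered 1589 and without DKO CD40L + IL-4 replicate 2 they numbered 1919.

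**Figure D5:**
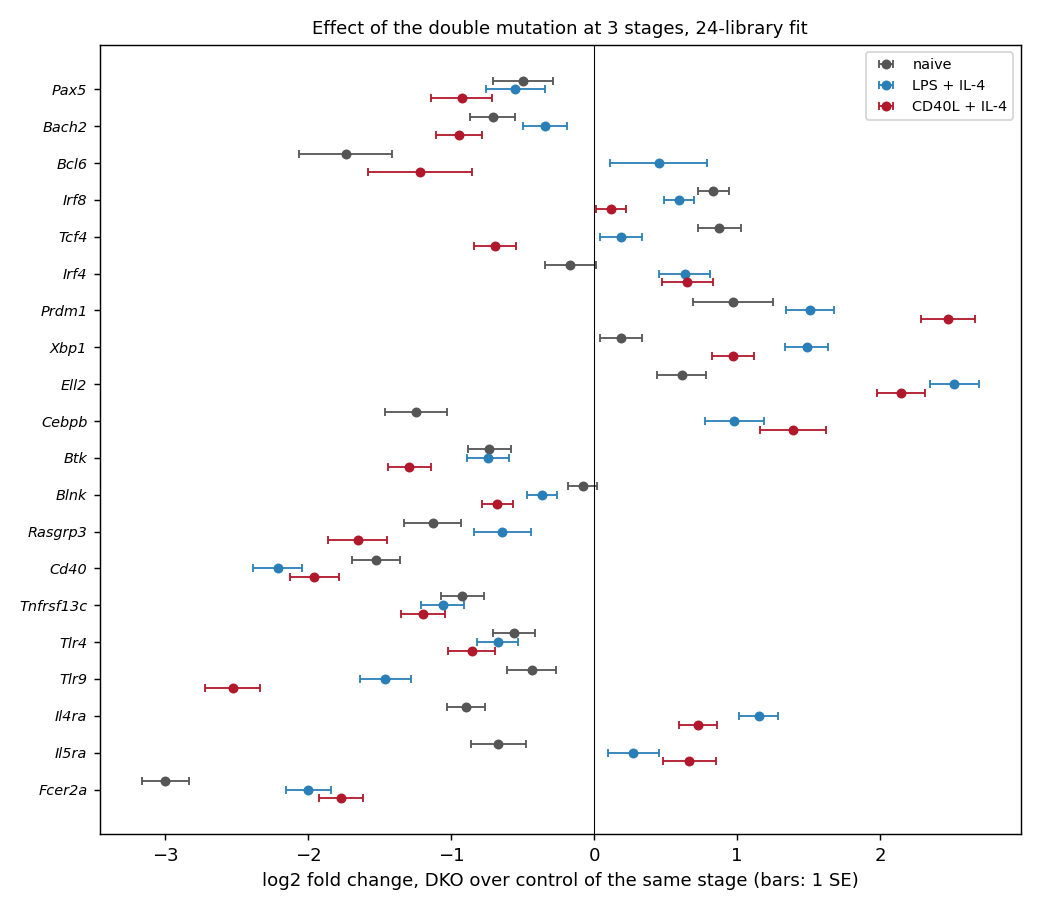
Log2 fold change (DKO over the control of the same stage, bars of 1 SE) of 20 genes in naive cells, after LPS + IL-4 and after CD40L + IL-4, from the fit of 24 libraries. Tlr9, Prdm1, Rasgrp3 and Btk lie further from 0 after CD40L + IL-4 than at the other stages, and Fcer2a lies furthest from 0 in naive cells.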

How the data were processed

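The authors aligned reads to GRCm38 (mm10) with Subread, counted uniquely mapped reads over RefSeq exons with featureCounts (versions not given in the sources used here), and deposited raw read counts per gene together with quantile-normalised log2 RPKM values. Counts were the main data, and the log2 RPKM values served only for an alternative expression threshold, which left out 232 tested genes without such a value. Entries without a gene symbol (517, holding 0.19% of counts) stayed under their identifiers. Groups came from the labels. Genes that held 0.5 CPM or more in 2 or more of 8 libraries were fitted with edgeR 4.0.16 in R 4.3.3 (TMM factors of 0.941 to 1.04, glmQLFit and glmQLFTest over all 4 genotypes of the culture), and the stage interactions over 24 libraries. Following the study's methods, a call needed a Benjamini-Hochberg adjusted p under 0.15 and a fold above 1.5. The SE of a log2 fold change was its size divided by the square root of the F statistic. At 2 libraries per group an exact permutation test cannot go below p = 0.333. Counting intervals cover counting error only. Alternatives used RLE factors, DESeq2 1.42.0, limma 3.58.1 (voom), other filters, other sets of libraries, a replicate block and each library left out. The code was tested on simulated data. Promoter sequences came from RefSeq (GRCm38.p6), which had entries for 8984 of the genes tested. Genes named were Spi1, Spib and neighbours, those the study discusses for these libraries, the 10 largest rises and falls (5 for the other contrasts), and up to 3 called members per role and direction of each list. Ftl1, Pold1, Hspa5, Hyou1, Manf, Sec61b, Tlr7, Ighe and Tnfrsf17 were added after their values were seen. The comparison, the lists and their members were chosen with earlier results of these data known. Some genes are not reported here.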

Additional observations from a re-analysis of the deposited data

Results flagged for a closer look

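Values below are the log2 effect of the DKO genotype after CD40L + IL-4 minus that at another stage, from the interaction term in edgeR's quasi-likelihood fit of 24 libraries, and each was picked out because that test called it. They are genes the study discusses and up to 5 of the largest differences in each direction. Fitted values of genes with libraries at 0 depend on the prior count and are no bounds. Stage and deposited set cannot be told apart in these differences.

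Against LPS + IL-4, 9 of the 26 genes tested for that purpose were called, beside 22.5% of all 13684 genes. The effect was lower after CD40L + IL-4 for Spi1 (-1.54, adjusted p = 0.000325), Spib (-1.25, 0.00801), Bcl6 (-1.67, 0.0298), Tcf4 (-0.88, 0.00939), Bach2 (-0.60, 0.0739), Cd79b (-0.69, 0.0680), Rasgrp3 (-1.01, 0.0212) and Tlr9 (-1.07, 0.00887), and higher for Prdm1 (0.96, 0.0148). Among the largest differences, Ccl22 (4.67), a chemokine gene, was read at 70.8 and 178 CPM in control and 188 and 128 CPM in DKO after CD40L + IL-4, but at 442 and 550 CPM in control and 13.1 and 36.6 CPM in DKO after LPS + IL-4. Lad1 (3.88) likewise fell only in LPS + IL-4, from 145 and 120 CPM to 10.5 and 11.9 CPM. Unc5b (6.67), Sytl3 (4.34) and Ccr10 (4.08) were the other positive differences. Zfp521 (-4.37), a zinc finger factor, rose at both stages, from 0.456 and 0.213 CPM to 18.7 and 10.6 CPM after LPS + IL-4 and from 18.7 and 13.6 CPM to 46.2 and 30.5 CPM after CD40L + IL-4. Cdh1 (-4.95), Fam101a (-4.39), Slc16a3 (-4.22) and Eomes (-4.16) were the other negative ones.

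Against naive cells, 14 of the 26 genes were called, beside 14.4% of all 13684 genes. The effect was lower after CD40L + IL-4 for Spi1 (-1.09, adjusted p = 0.00252), Spib (-1.66, 0.000664), Tlr9 (-2.09, 1.57e-05), Tcf4 (-1.57, 5.01e-05), Irf8 (-0.72, 0.00396) and Blnk (-0.59, 0.0132). It was higher for Prdm1 (1.5, adjusted p = 0.00836), Xbp1 (0.78, 0.0191), Irf4 (0.82, 0.0478), Ell2 (1.53, 0.000216), Cebpb (2.64, 1.57e-05), Il4ra (1.62, 1.17e-05), Il5ra (1.33, 0.00241) and Fcer2a (1.23, 0.000752). Among these, Tcf4, Cebpb, Il4ra and Il5ra were called in opposite directions, at 0.87, -1.25, -0.90 and -0.67 in naive cells and at -0.69, 1.39, 0.72 and 0.66 after CD40L + IL-4.

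Among the largest differences from naive cells, Gcsam (7.46), a germinal center gene, was read at 0.339 and 0.307 CPM in control and 14.5 and 8.31 CPM in DKO after culture, and at 3.27 and 1.41 CPM and 0.647 and 0.281 CPM in naive cells. Gdpd3 (-12.78) was at 0 in both DKO libraries after culture but at 27.1 and 46.6 CPM in naive DKO cells. Qrfp (7.37), Perp (5.61), 1700028I16Rik (-10.57), Mras (-10.21) and Slc1a2 (-8.68) were the others with a symbol. Rn7sk (5.03), and an entry without a symbol, Entrez_100628579 (5.08), differed widely between replicates of several groups (33.9 and 2.15 CPM for Rn7sk in DKO after culture, and 55.1 and 1.04 CPM in naive control).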

How the results depend on the processing

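Of 188 genes named, 183 were called in DKO against control, 129 of these were called under every alternative that gave a value, and 0 reversed. The weaker ones were most often lost without DKO replicate 2 (32), without control replicate 1 (31), at adjusted p under 0.05 (23) or without control replicate 2 (22). The 2331 calls became 1536 at adjusted p under 0.05 and 1508 to 2529 with 1 library left out, and lay between 1738 and 2742 under the other settings, the lower end with a threshold on RPKM, which lowered the share of higher calls from 49.8% to 42.8%. DKO against PU.1 cKO was less stable. Its 517 calls became 998 without a filter on low counts, 1006 with all 24 libraries in the fit, 211 at adjusted p under 0.05 and 198 to 442 with 1 library left out, and their share of higher genes went from 54.9% to 33.3% without PU.1 cKO replicate 2. The 3080 differences from LPS + IL-4 became 1962 at adjusted p under 0.05 and 1589 to 3597 with 1 library left out. The 1969 differences from naive cells became 1236 at adjusted p under 0.05, 1261 with only the 8 libraries of the 4 groups and 1624 to 2176 with 1 library left out. The causes were not tested. The labels tie same-numbered libraries to no shared animal or day, and their deviations from the group means correlated at -0.0472 to 0.403 over 6 pairs of genotypes (0.0262 for control and DKO, 0.297 for PU.1 cKO and DKO), so a pairing was not shown for all of them. With the replicate block the counts were 2560, 843, 3471 and 2316 in the order above. Genes of few reads are limited by depth, as with Mybpc3, Ccr10 and Cpeb3, which had 3 reads in the controls together.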

Other observations

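Immunoglobulin variable genes, a group chosen after their values were seen, were higher in DKO. Of 98 tested heavy chain variable genes 60 rose and 0 fell (61.2% against 9.13% of all genes), with a median log2 fold change of 0.92 and summed levels of 1230 and 1140 CPM in control and 2290 and 2150 CPM in DKO. Of 103 kappa chain genes 54 rose (52.4%) and 1 fell (median 0.71), and of 9 lambda chain genes 5 rose (55.6%). The heavy chain median was 0.85 with PU.1 loss and -0.02 with SpiB loss alone against the same controls, 1.04 in DKO after LPS + IL-4 and -0.38 in naive DKO cells. Reads of near-identical variable genes can be assigned to 1 another, so single members are uncertain. These loci bear on the map of changes: chromosome 12 had 147 of 545 genes called (27.0%), 67 of them with an Igh symbol, and chromosome 6 had 156 of 671 (23.2%), 55 with an Igk symbol.

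Smaller groups chosen in the same way moved less clearly. Of 12 interferon-induced Ifit, Isg and Oas genes, 7 fell (58.3% against 9.2% of all genes) and 1 rose (8.33% against 9.13%), with a median of -0.84. Their summed level hardly differed, at 170 and 169 CPM in control and 173 and 162 CPM in DKO. Of 51 histone genes 8 rose (15.7% against 9.13% of all genes, median 0.87). Their sums were 98.3 and 85.3 CPM in control and 231 and 112 CPM in DKO. The higher value was that of DKO replicate 1, the library with the most ribosomal RNA. Of 105 ribosomal protein genes 4 rose (3.81%) and 2 fell (1.9%), with a median of 0.07.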
